A study of Mus musculus with 6 samples.

Results

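The baseline transcriptome of control LSK cells is described here from the 3 control arrays of a study of 6 arrays, as the level of each gene and its spread between the arrays. LSK cells are mouse bone marrow cells that lack the surface antigens of mature lineages and carry Sca1 and c-Kit. The control cells came from C57BL/6 mice with unmodified Srf alleles and the Mx1-Cre transgene (Srf+/+;Mx1-Cre), and the other 3 arrays came from Srf flx/flx;Mx1-Cre mice, called SRF-null. The members were all probe sets of the control arrays that name a single gene in the platform annotation, which left 34945 of 45101 probe sets and, with 1 probe set per gene, 18193 genes.

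Mice of both genotypes were given pIpC, a synthetic double-stranded RNA, in 3 injections of 200 µg at intervals of 2 days from the age of 6 weeks, and the cells were collected 35 days after the last of these. The controls are therefore no untreated mice: they carry the recombinase, which is driven by an interferon-responsive promoter, and received the same inducer. Flow cytometry isolated the LSK cells from pools of animals, and 30 ng of RNA per array was amplified before hybridisation. Neither the size of a pool nor any sharing of animals between pools is stated in these sources, so the spread reported below is that between 3 arrays of pooled cells.

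The LSK fraction holds the hematopoietic stem cells, which renew themselves for the life of the animal, together with the multipotent progenitors that they feed. Stem cells divide rarely and depend on a set of transcription factors such as Gata2, Lmo2 and Hlf, whereas multipotent progenitors divide often and begin to transcribe genes of the myeloid or lymphoid branches at low levels before any commitment. A profile of the whole fraction is an average over these cells and over any others that passed the sort, so more cells of a type and more RNA per cell cannot be told apart.

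Levels are normalized signals on the log2(signal + 16) scale, on which a signal of 0 reads 4.0 and 1 unit is a doubling of the signal plus 16. A differing brightness between genes depends on the probe as well as on the transcript. Rps16, a ribosomal protein gene, read 4.0 on all 3 arrays on its only usable probe set, although ribosomal protein genes otherwise made up the brightest group. Levels of different genes are therefore given as places in the distribution of all genes, and spread is taken within 1 probe set, though it too was wider among dim genes.

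The 3 control arrays had median signals of 292.1, 221.4 and 200.5 before normalization and upper quartiles between 5198 and 5320. The Spearman correlation between pairs of control arrays was 0.984 to 0.986 across all genes, a value across genes that are not independent replicates. The signal of the Actb control probe sets at the 3′ end over the 5′ end, a sign of RNA integrity, was 1.18, 1.45 and 1.35 log2 units on controls 1, 2 and 3. Control 2 stood apart in its sex-linked transcripts. Eif2s3y, a translation factor gene on the Y chromosome, read 14.04 on control 1, 4.37 on control 2 and 13.06 on control 3, and Kdm5d, a Y-linked histone demethylase, read 10.54, 4.0 and 10.57. Xist, the RNA of the inactive X chromosome, read 16.24, 15.97 and 15.57. Controls 1 and 3 thus carried transcripts of both sexes and control 2 those of 1 sex, and the part of this difference in the spread described below was not tested.

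A gene was counted as above background where its mean over the control arrays exceeded 7.61, the 95th percentile of 115 genes for smell, pheromone and taste receptors and hair keratin-associated proteins, which marrow is not known to use. Those reference genes had a median level of 4.34, and 6 of them lay above the threshold. Of all 18193 genes, 11010 (60.5%) were above background, and the median level was 10.46. Bright genes are those in the top 25.0% of all genes (4549), which began at a level of 13.72. The brightest gene, Rpsa, which encodes a protein of the small ribosomal subunit, read 18.42 on each of the 3 arrays.

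**Figure D1:**
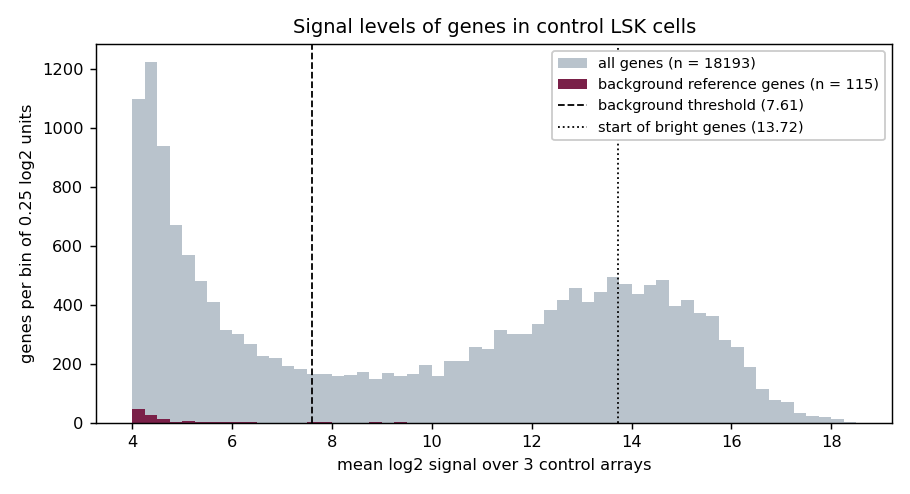
Histogram of the mean log2 signal of 18193 genes over the 3 control arrays (grey) and of the 115 background reference genes (dark), with the background threshold of 7.61 (dashed) and the start of the bright genes at 13.72 (dotted). All genes form a dim group near the reference genes and a broad group of brighter genes, and 6 reference genes lie beyond the dashed line.

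Both sort and progenitor markers measured were bright. Kit, the stem cell factor receptor used for sorting, read 15.44 on control 1, 14.98 on control 2 and 14.84 on control 3, a mean of 15.09 ± 0.31 (SD, n = 3) that lay at percentile 88.7 of all genes. Cd34, a sialomucin of stem and progenitor cells, read 16.73, 16.72 and 16.78, a mean of 16.74 ± 0.03 (SD, n = 3) at percentile 98.7. Ly6a, which encodes Sca1, was not analysed here, so the label was checked against the other sort marker and Cd34. Among the antigens of mature cells that such a sort removes, 8 genes were measured and 7 were not above background. The T cell receptor subunit genes Cd3d, Cd3e and Cd3g read between 4.0 and 5.58 on every array, and Itgam, the integrin chain of myeloid cells, read 5.47, 5.60 and 6.05. Cd4 was the exception at 7.17, 8.22 and 8.25, close to the threshold.

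Protein synthesis supplied the brightest transcripts. Of the 20 genes with the highest mean, 19 encode ribosomal proteins, and the other, Naca, encodes a subunit of the nascent polypeptide-associated complex and read 18.28, 18.34 and 18.28. Of 44 ribosomal protein genes measured, 43 were above background and 41 were bright, against 25.0% of all genes, and their median level was at percentile 99.8. The median SD between control arrays over the 43 was 0.04. Quantile normalization holds the top of the range to like values on every array, and with no normalization this median was 0.07, against 0.20 for all genes above background, while Rpsa read 18.53, 18.39 and 18.37. Rpl35 read 18.32, 18.30 and 18.34, and Rpl4 read 18.20, 18.19 and 18.26. The dimmest 2 after Rps16 were Rpl12 at 12.93, 12.90 and 12.29 and Rps25 at 13.54, 13.40 and 12.95, both lowest on control 3. All 31 translation factors measured were bright, from Naca down to the initiation factor subunit Eif3b at 14.65, 15.04 and 14.92.

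Other machinery that every cell uses was nearly as bright. Of 17 housekeeping reference genes 16 were bright, and none differed by more than 2-fold between control arrays, against 12.7% of genes above background (1398 of 11010). The exception in level was Tbp, the TATA-binding protein, at 13.47, 13.36 and 13.28. Actb, the cytoplasmic beta-actin, read 17.69, 17.57 and 17.68, and B2m, the light chain of MHC class I, read 17.79, 17.78 and 17.80. Of 39 proteasome subunit genes 34 were bright with a median SD of 0.09, and the 1 not above background was Psmb11, the thymus-specific catalytic subunit, at 5.40, 4.91 and 4.60.

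Most genes of energy metabolism were bright, while isoforms of other tissues were dim. Of 81 oxidative phosphorylation genes measured, 76 were above background and 71 bright, with Ndufb11 of complex I at 17.66, 17.63 and 17.68. The dimmest members were Cox7b2 at 4.38, 4.21 and 4.26 and Cox8b at 4.37, 4.53 and 4.77, both isoforms of cytochrome oxidase subunits used in other tissues. Ndufb4, an accessory subunit of complex I, also lay below the threshold at 5.62, 5.37 and 5.38 on the probe set used. In glycolysis and the response to hypoxia 19 of 24 genes were bright. Ldha, which makes lactate, read 17.17, 17.36 and 17.34, while Vegfa, the endothelial growth factor, read 9.47, 9.76 and 9.79.

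**Figure D2:**
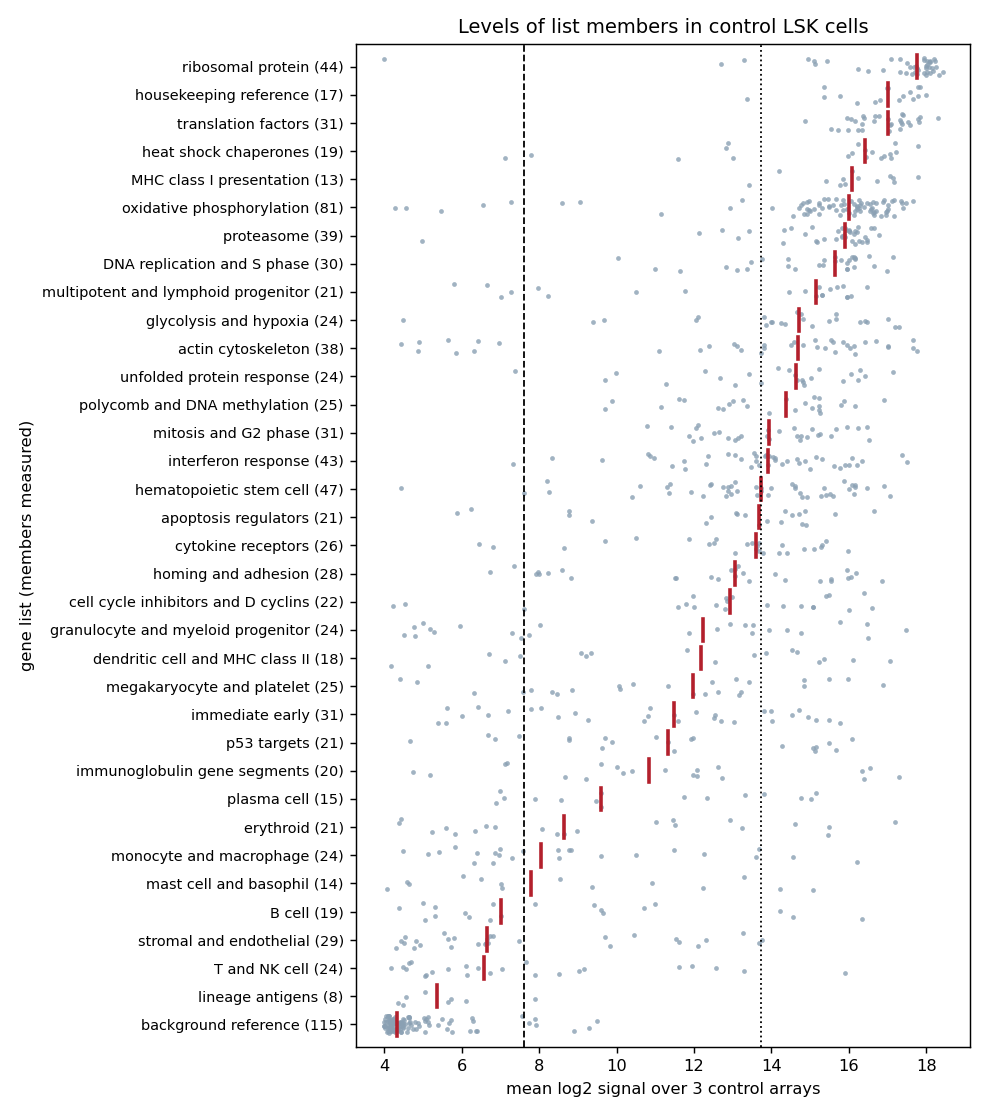
Mean log2 signal of each member (points) of 35 gene lists, 2 of them drawn up after values were seen, over the 3 control arrays, ordered by the list's median (red bar), with the background threshold (dashed) and the start of the bright genes (dotted). Ribosomal protein, housekeeping and translation factor genes lie at the bright end, and genes of mature B, T and NK, mast, monocytic, erythroid and stromal cells have medians between 6.58 and 8.65.

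Stem cell transcripts were detected almost without exception. Of 47 hematopoietic stem cell genes measured, 46 were above background and 24 were bright, and the median lay at percentile 75.2. The brightest were the transcriptional regulators Lmo2 at 17.23, 17.03 and 16.95, Etv6 at 17.09, 16.73 and 16.94 and Gata2 at 16.67, 16.39 and 16.38. Angpt1, a ligand of the receptor Tek, read 16.22, 16.21 and 16.05, and Hlf, a transcription factor of the most primitive cells in adult marrow, read 16.63, 15.85 and 15.75. Sox17, a factor of fetal stem cells, was the member not above background, at 4.53, 4.39 and 4.37. The cell cycle inhibitor Cdkn1c was near the threshold at 7.59, 7.91 and 7.35.

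Between arrays 6 of the 46 differed by more than 2-fold, close to the 12.7% of all genes above background. The median SD of the list was 0.29, against 0.19 for genes of like level, and 15 of the 46 had an SD under the median of genes of like level. Procr, the endothelial protein C receptor that marks long-term stem cells, read 15.51 on control 1 and 14.37 and 14.34 on controls 2 and 3. Vwf, the platelet adhesion protein that marks platelet-biased stem cells, ran the other way, at 10.65 on control 1 and 11.84 and 11.58 on controls 2 and 3. Control 3 was the lowest array for 27 of the 46, against 27.0% of genes above background, but for only 9 of the 46 when arrays were centred on their medians instead of quantile normalized, so the order of the arrays for this list depends on the scaling.

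Most genes of multipotent and lymphoid-primed progenitors were bright as well. Of 21 measured, 17 were above background and 13 bright, and the median lay at percentile 89.4. Dntt, the terminal transferase that adds bases to immunoglobulin and T cell receptor joints, read 16.51, 16.31 and 16.58, and Cd48, a surface protein gained as stem cells become progenitors, read 15.94, 15.63 and 16.02. Flt3, the receptor of lymphoid-primed progenitors, read 15.69, 15.14 and 15.10. Later lymphoid genes were dim: Rag2, part of the recombinase, read 7.70, 7.48 and 8.71, and Spib, a B and dendritic cell factor, read 5.22, 5.52 and 6.67. Ly6d, which marks the B-biased lymphoid progenitor, read 6.98 and 7.06 on controls 1 and 2 but 10.61 on control 3. Control 1 was the highest array for 11 of the 17, against 27.9% of genes above background. Control 2 was highest for 0, against 37.5%, and lowest for 12, against 22.4%. With arrays centred on their medians control 1 was highest for 5.81% of genes above background. The order for this list under that scaling is not reported here.

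Receptors and adhesion molecules of the marrow niche were mostly above background. Of 26 cytokine receptor genes 24 were above background, led by Cxcr4, the chemokine receptor that retains cells in the niche, at 16.03, 15.76 and 16.17. The shared beta chain of the IL-3 and GM-CSF receptors, Csf2rb, read 15.01, 15.80 and 15.42. Lifr at 6.47, 6.48 and 7.47 and Bmpr1a at 6.35, 7.16 and 5.80 were not above background. Of 28 homing and adhesion genes 26 were above background, and for both lists the share of all genes to compare is 60.5%. Cd47, the signal that protects cells from phagocytosis, read 16.87, 16.85 and 16.84 and Itga4, a chain of the VLA-4 integrin, read 16.28, 16.15 and 16.15. Cdh2 (7.35, 7.51 and 7.17) and Cdh5 (6.39, 6.54 and 7.31), which encode N-cadherin and the endothelial cadherin, were not above background.

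Among the actin cytoskeleton genes 30 of 38 were above background and 24 bright, with a median SD of 0.08 over the 30. Cfl1, which severs filaments, read 17.84, 17.70 and 17.73. The muscle isoforms Acta1 at 4.34, 4.59 and 4.38 and Actc1 at 4.69, 5.02 and 4.93 were at the level of the reference genes. Srf, the factor deleted in the other genotype, had a mean of 13.03 ± 0.02 (SD, n = 3) in control cells. The polycomb and DNA methylation genes were all above background, 25 of 25, against 60.5% of all genes. Of these, 0 differed by more than 2-fold, against 12.7% of genes above background. Dnmt1, the maintenance methyltransferase, read 16.86, 16.99 and 16.92, and Cbx7, a polycomb reader, was dimmest at 10.09, 9.77 and 9.24.

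Lists of mature lineages held both bright and undetected genes. In the granulocyte and myeloid list 15 of 24 genes were above background (62.5%) and 7 bright (29.2%), near the shares of all genes. Mpo, the myeloperoxidase of primary granules, read 17.13, 17.69 and 17.59, and Cebpa, the factor that sets granulocyte and monocyte fate, read 15.45, 15.99 and 15.84. Not above background were Cd177, a surface protein of mature neutrophils, at 4.31, 4.79 and 4.46 and the ficolin gene Fcnb at 4.59, 4.99 and 4.71. In the monocyte and macrophage list 12 of 24 were above background (50.0%), with Lyz2, the lysozyme, at 16.37, 16.33 and 15.92, while the tissue macrophage receptors Marco (4.69, 5.31 and 5.43) and Timd4 (4.43, 4.73 and 4.23) were not.

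The erythroid list had 13 of 21 genes above background (61.9%), near the 60.5% of all genes. Car2, a carbonic anhydrase, read 17.35, 17.19 and 17.04, and Gata1, the erythroid and megakaryocytic factor, read 12.70, 13.44 and 13.61. The alpha globin gene Hba-a1 (4.34, 4.41 and 4.42) and the heme synthesis gene Alas2 (4.52, 4.67 and 4.09) were not above background on the probe set used for each. Of 25 megakaryocyte and platelet genes 21 were above background (84.0%) and 5 were bright. Nfe2, a factor of platelet release, read 16.07, 15.96 and 15.90, whereas the platelet receptors Gp6 (4.40, 4.53 and 4.32) and P2ry12 (5.08, 4.78 and 4.70) were not above background.

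Markers of T, NK and stromal cells were mostly not above background. Of 24 T and NK cell genes 10 were above background (41.7%), against 60.5% of all genes. Nkg7, a granule membrane protein, led them at 15.88, 15.77 and 16.01, while Ncr1, which defines NK cells, read 4.29, 4.0 and 4.21. Of 29 stromal and endothelial genes 10 were above background (34.5%). The bone marrow stroma genes Lepr (4.60, 4.54 and 4.12), Dcn (4.61, 4.34 and 4.54) and Lum (4.24, 4.29 and 4.41) were at the level of the reference genes, and those above background included both stromal and endothelial genes. The brightest was Pdgfrb, a growth factor receptor of stromal cells, at 13.64, 13.65 and 13.95, followed by the endothelial receptors Eng at 13.84, 13.71 and 13.50 and Tie1 at 13.70, 13.14 and 12.97. The matrix genes Sparc at 6.67, 11.67 and 10.75 and Col1a2 at 9.35, 11.16 and 8.96 were both highest on control 2. The part of stromal or endothelial cells in these levels was not tested. In the dendritic cell and MHC class II list 13 of 18 were above background (72.2%), against 60.5% of all genes. The invariant chain Cd74 read 15.13, 14.66 and 15.91, and the dendritic factor Batf3 was not above background (5.04, 4.28 and 6.10).

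Spread between the arrays depended first on level. The median SD of genes above background was 0.20, and it fell from 0.43 in the dimmest quartile to 0.24, 0.17 and 0.11 in the brighter ones. Of the 11010 genes 6803 (61.8%) had a range under 0.5 log2 units, 1398 (12.7%) differed by more than 2-fold between the highest and the lowest array, 244 (2.22%) by more than 4-fold and 32 by more than 16-fold. In the dimmest quartile 36.7% of genes differed by more than 2-fold and in the brightest 1.31%. Control 1 set much of this count, being the lowest array in 905 of the 1398, against 50.6% of all genes above background. Without it the 2 remaining arrays differed by more than 2-fold in 366 genes, against 932 without control 2 and 872 without control 3. Centring arrays on their medians in place of quantile normalization raised the count to 2245. It also made control 3 the highest array for 61.3% of genes above background in place of 34.7% and control 1 the lowest for 85.0% in place of 50.6%, so each order of arrays below is read against the share of all genes.

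**Figure D3:**
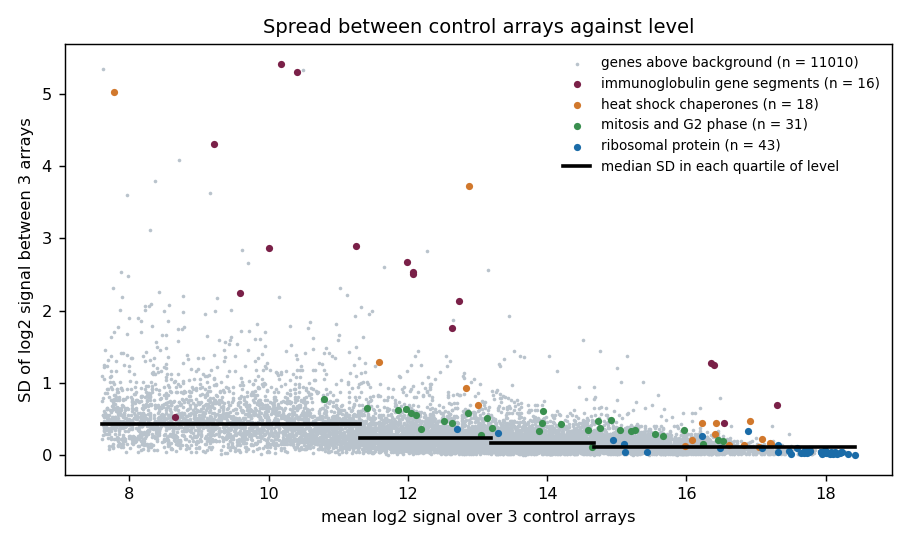
SD between the 3 control arrays against mean log2 signal for 11010 genes above background (grey), with the median SD in each quartile of level (black lines, 0.43 to 0.11) and 4 gene lists in colour. Immunoglobulin segments and a few heat shock genes lie far above genes of like level, mitosis genes lie slightly above, and ribosomal protein genes lie at the bottom.

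A second probe set was available for some genes. Of 1398 genes over 2-fold 385 had another probe set above background, and in 305 of these (79.2%) it was highest on the same array, against 3000 of 5286 (56.8%) among all genes above background. The 3 SRF-null arrays entered the normalization and the choice of probe sets but not the 2-fold call, and gave another view. Of the 1398 genes 571 also differed by more than 2-fold among the SRF-null arrays, which is 40.8% of the control genes and 45.5% of the 1254 such genes in SRF-null arrays. In all, 11.4% of the genes above background differed that much among SRF-null arrays, and 1010 of the 1398 lie in the dimmest quartile, where spread is widest.

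The widest differences belonged to antibody genes. Of the 20 genes with the largest SD, sex-linked genes left out, 7 were immunoglobulin segments, and in 15 of 16 segments above background control 3 was the highest array, against 34.7% of all genes. Ighg3, a heavy chain constant region, read 9.24 on control 1, 5.78 on control 2 and 16.21 on control 3 on the probe set used. Its other probe sets were not above background by their means, and each was highest on control 3. The widest of these read 4.22, 4.06 and 9.96, and the others had ranges of only 0.66 and 0.62 log2 units. Igkv5-39, a light chain variable segment, read 8.95, 5.04 and 13.63, and Igkv6-15 read 9.81, 11.56 and 14.83. These segments are alike in sequence, so signal can be shared between their probe sets and the count of segments is not a count of separate measurements. The list was drawn up after these values had been seen.

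Other genes of antibody-secreting cells read highest on the same array. In a plasma cell list, also drawn up afterwards, 12 of 15 genes were above background and control 3 was highest for 9 of them. Control 3 was highest for 34.7% of all genes above background, the share beside which the B cell and mast cell counts below also stand. Jchain, which joins antibody molecules, read 14.81, 13.98 and 16.66. Pou2af1, the B cell coactivator of octamer factors, read 7.68, 8.28 and 12.87, and Irf4, a factor that plasma cells need, read 8.33, 8.92 and 11.56. In the B cell list, 9 of 19 genes were above background and 7 of these were highest on control 3. The mean level of all 19 was 8.04, 8.09 and 9.33 on controls 1, 2 and 3. Ebf1, an early B cell factor, read 7.45, 6.75 and 9.49, and Cd79a, of the B cell receptor, read 5.58, 6.07 and 8.82. Pax5, the factor that defines B cells, stayed at 4.37, 4.33 and 4.43, and Ms4a1, which encodes CD20, at 4.81, 4.18 and 6.19, both under the threshold on every array. Mast cell and basophil genes leaned to control 3 as well, in 6 of 7 above background: Fcer1a, a chain of the IgE receptor, read 9.91, 10.34 and 12.48, and Cpa3, a mast cell protease, read 11.82, 11.65 and 13.18. The mast cell proteases Tpsab1 (4.82, 4.68 and 4.38) and Mcpt4 (5.05, 4.07 and 4.65) were not above background.

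**Figure D4:**
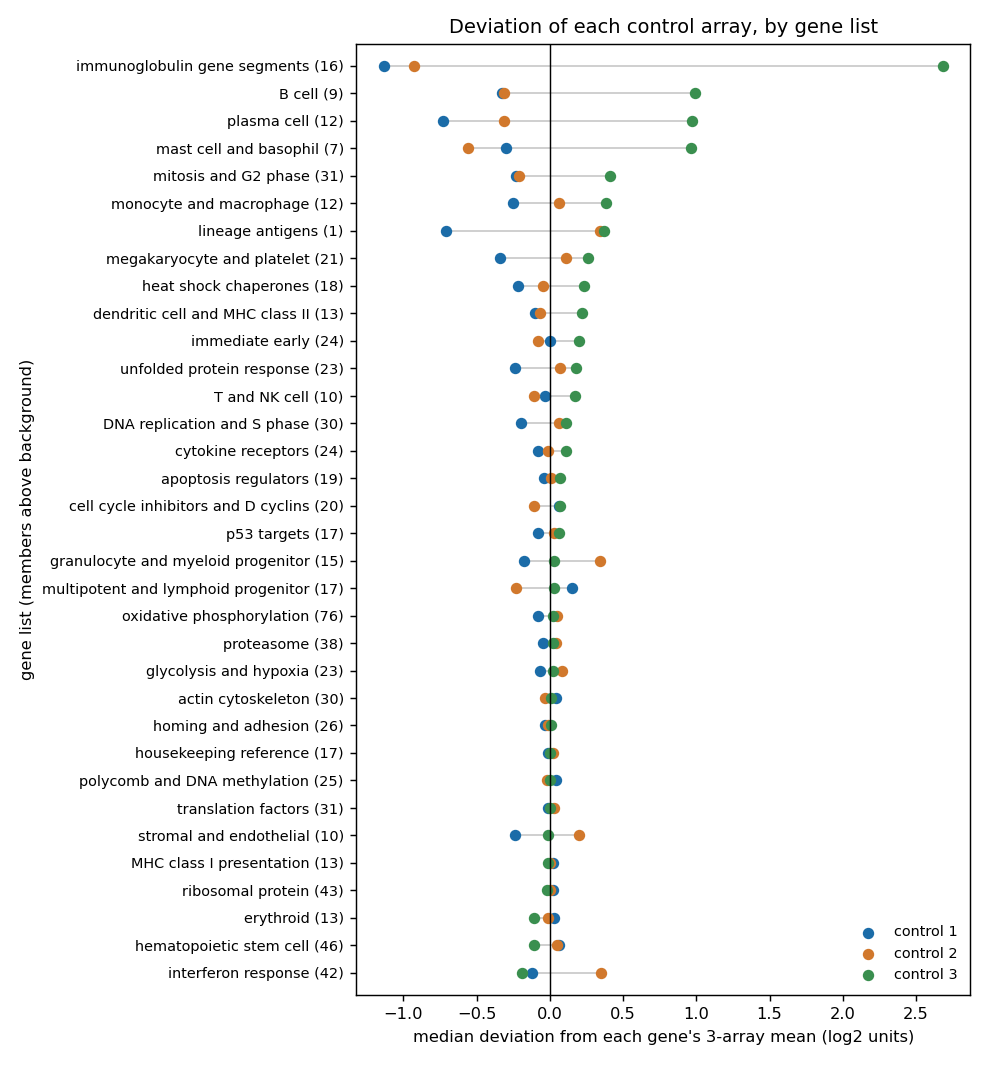
Median, over the members of each gene list above background, of the signal on each control array minus the gene's mean over the 3 arrays, in log2 units. Control 3 reads 2.68 above the mean for immunoglobulin segments and 0.41 for mitosis genes, control 2 reads 0.35 above for interferon response genes, and ribosomal protein and housekeeping lists lie at 0.02 or nearer to 0.

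Several myeloid progenitor genes with a wide range were lowest on control 1, although over the whole granulocyte and myeloid list control 1 was lowest for 8 of 15, near the 50.6% of all genes above background. Elane, the neutrophil elastase, read 11.96 on control 1, 13.84 on control 2 and 14.78 on control 3. Ms4a3, a membrane protein of committed granulocyte and monocyte progenitors, read 13.11, 15.38 and 15.77. In the monocyte and macrophage list control 1 was lowest for 7 of 12 and highest for 3, against 50.6% and 27.9% of genes above background. Csf1r, the receptor for M-CSF, read 12.11, 14.25 and 14.63, the chemokine receptor Ccr2 read 9.17, 12.68 and 12.60, and F13a1, a clotting transglutaminase, read 12.05, 14.20 and 14.59. For Csf1r all 3 probe sets had control 1 lowest. Lyz2, the brightest of the list, was instead lowest on control 3, and Cd14, a coreceptor for endotoxin, read 7.30, 7.39 and 10.82. A pair of mature granulocyte genes ran in the opposite direction to Elane, as S100a9, a calcium-binding protein of neutrophils, read 13.63, 13.05 and 11.13 and S100a8 read 12.63, 12.37 and 10.64. Over the whole granulocyte and myeloid list 7 of 15 differed by more than 2-fold, against 12.7% of genes above background, and the mean level of all 24 members was 10.26, 10.88 and 10.49. Control 1 also had the highest median signal before normalization and the lowest ratio of 3′ to 5′ Actb signal, and the part of either in these differences was not tested.

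Platelet genes also differed, with 8 of 21 over 2-fold (38.1%), against 12.7% of genes above background. Thbs1, a platelet adhesion protein, read 9.16 on control 1, 13.24 on control 2 and 11.57 on control 3, Gp1bb, a subunit of the von Willebrand receptor, read 7.38, 9.15 and 9.99, and Ppbp, a platelet chemokine, read 8.04, 7.06 and 10.32. The members did not share an order of the arrays. Control 3 was highest in 10 and control 2 in 8 of the 21, against 34.7% and 37.5% of genes above background.

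**Figure D5:**
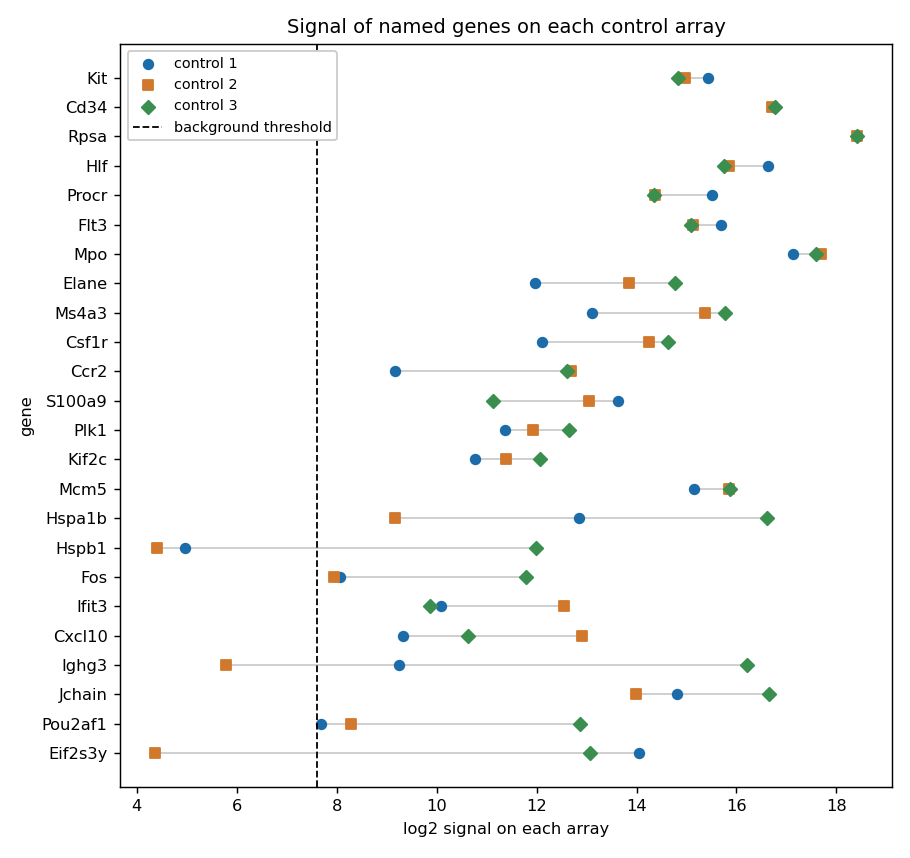
Log2 signal of 24 named genes on control 1 (circles), control 2 (squares) and control 3 (diamonds), with the background threshold of 7.61 (dashed). Kit, Cd34 and Rpsa lie close together, control 3 is far to the right for Hspa1b, Hspb1, Fos, Ighg3 and Pou2af1, control 1 lies to the left for Elane, Ms4a3, Csf1r and Ccr2, and control 2 lies to the left for Eif2s3y.

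Most cell cycle genes were bright, and most members shared an order of the arrays. All 30 replication genes measured were above background and 23 were bright. Pcna, the sliding clamp of DNA polymerase, read 17.04, 17.24 and 17.17, and Mcm5, a subunit of the replicative helicase, read 15.15, 15.85 and 15.88. Control 1 was the lowest array for 28 of the 30, against 50.6% of genes above background. With arrays centred on their medians it was lowest for all 30, against 85.0%. Just 1 member, the thymidylate synthase gene Tyms, differed by more than 2-fold, at 9.07, 10.05 and 10.96.

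Mitosis and G2 genes followed control 3 instead. All 31 were above background, 18 bright, and control 3 was the highest array for 30, against 34.7% of genes above background. This number was 28 to 30 under every other scaling, offset, probe set rule and threshold tried. Plk1, a mitotic kinase, read 11.37 on control 1, 11.92 on control 2 and 12.64 on control 3, and Kif2c, a microtubule-depolymerising motor, read 10.76, 11.39 and 12.07. Foxm1, the factor that drives the program, read 10.24, 10.46 and 11.69. The differences were small beside those of antibody genes, with a median SD of 0.37 and 8 of 31 over 2-fold, but 30 of the 31 had an SD at or over the median of genes of like level, which 50.0% of all genes above background do not reach. In the list of cell cycle inhibitors and D cyclins 3 of 20 genes above background differed by more than 2-fold, near the 12.7% of all genes, among them the D cyclin Ccnd1 at 13.35, 11.69 and 12.67. The INK4 inhibitors Cdkn2a (4.41, 4.60 and 4.57) and Cdkn2b (4.42, 4.19 and 4.10) were not above background.

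The promoters of these mitosis genes share short sequences, shown here because nearly all of the genes had the same highest array. The cell cycle homology element, TTTGAA on either strand, and the CCAAT box, CCAAT on either strand, were searched in RefSeq windows of 300 bases, from 250 before to 50 after each start in build GRCm38.p6. Both occurred in 18 of 26 members with a window (69.2%), against 7.97% of 27025 genes with a window. A match is a description of the letters and not a bound site. Control 3 was the highest array for all 18 with both and for 7 of the 8 without. Of the 18 with both 4 differed by more than 2-fold, and of the 8 without 3 did. The stretches for Kif11, a spindle motor (chr19:37376322-37376381, plus strand), and Cdc20, an activator of the anaphase-promoting complex (chr4:118437344-118437411, minus strand), end at the base before the start. Capitals mark the matches.
Kif11: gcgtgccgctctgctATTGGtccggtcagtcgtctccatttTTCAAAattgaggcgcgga
Cdc20: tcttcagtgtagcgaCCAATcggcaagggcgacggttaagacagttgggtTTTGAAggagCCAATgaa

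Kif11 read 12.74, 12.93 and 13.72 on controls 1, 2 and 3, and Cdc20 read 14.00, 13.91 and 14.69. In both, control 3 lay above the other arrays, which were close to each other.

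Most interferon response genes were bright in these cells, 35 days after the inducer, and highest on control 2. Of 43 measured, 42 were above background and 24 bright, with a median at percentile 77.1. Ifitm3 and Ifitm1, membrane proteins that block virus entry, read 17.45, 17.64 and 17.40, and 17.29, 17.53 and 17.29. Control 2 was the highest array for 35 of the 42, against 37.5% of genes above background, and for 34 to 37 under the other scalings, offsets, probe set rules and thresholds tried. Of the 42, 12 differed by more than 2-fold. Cxcl10, a chemokine for activated T cells, read 9.33 on control 1, 12.91 on control 2 and 10.63 on control 3, Ifit3, an antiviral protein, read 10.08, 12.54 and 9.86, and Ifit1, of the same family, read 12.86, 14.16 and 12.63. Control 2 was also the array without Y-linked transcripts and had the highest ratio of 3′ to 5′ Actb signal, and the part of either in this difference was not tested. On SRF-null 1, 2 and 3 Cxcl10 read 9.14, 11.64 and 9.59 and Ifit3 read 10.03, 11.67 and 10.28. Ifit1 read 12.15, 13.75 and 12.71, so all of these were highest on SRF-null 2. Ifitm1 was instead highest on SRF-null 1, at 17.52, 17.39 and 17.17. On SRF-null 2 Eif2s3y read 14.18 and the Actb ratio was 1.51 log2 units. The labels do not say what arrays of the same number share. With no array from mice without pIpC, the level in untreated LSK cells was not analysed here. MHC class I genes, of which many also respond to interferon, had 0 of 13 members that differed by more than 2-fold, against 12.7% of genes above background, and H2-K1 read 16.75, 16.74 and 16.70.

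The interferon-stimulated response element was searched as GAAA repeated after a gap of any 2 bases, on either strand in the same windows. It occurred in 19 of 33 members with a window (57.6%), against 3.99% of all genes with a window. Control 2 was the highest array for 17 of the 19 with a match and for 9 of the 14 without. The median SD was 0.35 with a match and 0.22 without. Of the 19 with a match 3 differed by more than 2-fold, and of the 14 without 3 did. Upstream stretches are shown for the 4 matching members with the largest spread, with the matches in capitals. They lie at chr5:92349078-92349117 on the minus strand (Cxcl10), chr19:34583358-34583431 on the plus strand (Ifit3), chr19:34640770-34640828 on the plus strand (Ifit1) and chr3:142559984-142560029 on the plus strand (Gbp3, a guanylate-binding GTPase), and the 3 after Cxcl10 hold 2 matches each, which overlap in Gbp3.
Cxcl10: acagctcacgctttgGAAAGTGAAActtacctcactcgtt
Ifit3: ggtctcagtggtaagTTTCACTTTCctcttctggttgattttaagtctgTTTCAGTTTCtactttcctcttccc
Ifit1: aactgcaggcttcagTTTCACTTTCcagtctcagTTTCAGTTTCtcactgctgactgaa
Gbp3: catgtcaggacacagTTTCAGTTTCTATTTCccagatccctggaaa

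Gbp3 read 13.59, 14.50 and 14.17, so it too was highest on control 2, with control 3 nearer to it than control 1.

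Inducible heat shock genes were far higher on control 3 than on the other arrays. In the heat shock list 18 of 19 genes were above background and 13 bright. Their median SD was 0.27, against 0.08 for genes of like level, and 1 of the 18 had an SD under that of its like. Constitutive chaperones had narrow ranges beside the inducible ones: Hspa8, the cognate HSP70, read 17.75, 17.75 and 17.85, and Cct2, of the chaperonin ring, read 17.03, 17.34 and 17.24. Hspa1b, an inducible HSP70, read 12.85 on control 1, 9.16 on control 2 and 16.61 on control 3, a 174-fold range, and its near-identical copy Hspa1a read 5.68, 4.14 and 13.51, so alike in sequence that their probe sets may share signal. Hspb1, the small chaperone HSP27, read 4.96, 4.41 and 11.99 and so was above the threshold on control 3 alone, and the cochaperone Bag3 read 10.59, 11.10 and 13.04. Control 3 was the highest array for 14 of 18, against 34.7% of genes above background.

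Immediate early genes, which respond to stimuli within minutes and also to handling of cells, differed between arrays in part of their members. Of 31 measured, 24 were above background and 7 of these differed by more than 2-fold (29.2%), against 12.7% of all genes above background. Fos, a component of AP-1, read 8.07, 7.94 and 11.78, and its partner Jun read 10.07, 9.90 and 12.44, both highest on control 3. Egr1, a zinc finger factor of the same class, read 14.61, 14.20 and 14.76, a narrow range. Socs3, a feedback inhibitor of cytokine signalling, instead read 10.96 on control 1 and 13.36 and 13.31 on controls 2 and 3. Most antibody, mitosis, mast cell and heat shock genes had control 3 as their highest array, and whether any of these differences depends on another was not tested. On SRF-null 1, 2 and 3 Igkv5-39 read 8.72, 8.92 and 13.23 and Pou2af1 read 6.93, 8.82 and 12.12. Hspa1b (6.07, 9.40 and 12.92), Plk1 (12.40, 12.08 and 12.95) and Cpa3 (12.77, 12.75 and 13.35) were likewise highest on SRF-null 3. Ighg3 (6.17, 6.05 and 6.46), Hspa1a (4.28, 5.16 and 5.69) and Hspb1 (5.16, 4.57 and 4.51) stayed under the threshold on those arrays. Fos (9.57, 15.33 and 12.17), Jun (10.15, 14.14 and 11.78) and Bag3 (10.42, 10.69 and 10.57) were instead highest on SRF-null 2. The ratio of 3′ to 5′ Actb signal on control 3 lay between those of the other arrays.

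The heat shock element was searched as GAA, TTC and GAA with any 2 bases between neighbours, on either strand. It occurred in the windows of Hsph1, Hspd1 and Hspe1, 3 of 14 members with a window (21.4%), against 0.662% of all genes with a window. Hspd1 and Hspe1 encode the mitochondrial chaperonin and its lid and are transcribed in opposite directions from a shared promoter. The stretch is given on the Hspd1 strand (chr1:55088044-55088091, minus strand), where it spans bases 159 to 112 before the Hspd1 start and holds 2 overlapping matches in capitals.
Hspd1: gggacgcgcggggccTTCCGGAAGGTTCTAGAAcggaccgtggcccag

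Hspd1 read 16.09, 16.44 and 16.69 and Hspe1 read 16.69, 16.83 and 16.96. Both were in the same order over the arrays, lowest on control 1 and highest on control 3. Hsph1, the HSP110 chaperone, read 16.59, 16.69 and 17.47.

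Most genes for quality control of proteins in the endoplasmic reticulum were bright. Of 24 unfolded protein response genes 23 were above background (95.8%, against 60.5% of all genes) and 16 bright (66.7%, against 25.0%). Of the 23, 3 differed by more than 2-fold, near the 12.7% of all genes above background. Hspa5, the chaperone BiP, read 16.14, 16.47 and 16.64, and Pdia4, a disulfide isomerase, read 9.01, 10.16 and 10.77. Control 1 was the lowest array for 18 of the 23, against 50.6% of genes above background. With arrays centred on their medians it was lowest for 21 of the 23, against 85.0%. Among p53 targets 17 of 21 were above background, and Pmaip1, which encodes the death protein NOXA, had the widest range at 6.33, 9.36 and 10.63, lowest on control 1. Of 19 apoptosis regulators above background it was the 1 that differed by more than 2-fold, and Mcl1, a survival factor that stem cells need, read 16.67, 16.59 and 16.73.

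A few single genes differed widely without belonging to a list. Ccnb1ip1, a ubiquitin ligase gene, read 10.73 and 11.39 on controls 1 and 3 and 4.0 on control 2, and it read 4.0 on all 3 SRF-null arrays. BC018473 read 4.72, 13.80 and 4.34, high on control 2 alone, but its other probe set read 4.11, 4.05 and 4.0, and Rab6b, a small GTPase, read 13.26, 7.79 and 6.40, high on control 1. Tmem87a (14.16, 9.02 and 13.64) and Rbm45 (14.32, 10.20 and 14.91) were low on control 2. Rab6b had another probe set above background with the same order, at 11.50, 6.38 and 5.95. Ccnb1ip1, Tmem87a and Rbm45 rest on 1 probe set each.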

How the data were processed

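Signals of 45101 Affymetrix probe sets were taken from the table the authors deposited, with 1 linear intensity for each probe set on each array, a unit read from the values. The methods of summary, background correction and scaling are, in the sources used here, not given. The series' text and the annotation of the table name different array types, and the table was used as it stands. Of the probe sets 64 were Affymetrix controls, 932 named several genes and 9160 named none. Of the 34945 naming 1 gene, 34741 matched a RefSeq gene table (GRCm38.p6) by their gene ID, and 0 had a newer symbol.

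Intensities were converted to log2(value + 16) and quantile normalized over 6 arrays, and each gene was represented by its probe set with the highest mean over them. The steps were tested on simulated data. Python 3.11.15 was used with numpy 2.4.6, pandas 2.3.3 and matplotlib 3.10.9. No tests were run, since 1 group is described, and precision is limited by the number of arrays.

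The 35 gene lists and the members were chosen with earlier results of these data known, and the immunoglobulin and plasma cell lists after their values had been seen. The lists name 833 different measured genes. The rule for named genes took Kit, Ly6a and Cd34, the 20 highest means, the 20 largest SDs among genes above background, sex-linked genes, and in each list up to 5 highest means, 3 lowest means and 4 largest SDs, of which a subset is printed. Genes named outside it, chosen after their values were seen, are Hlf, Srf, Egr1, S100a8, Cd79a, Jchain, Irf4, Hsph1, Hspd1, Hspe1, Kif11, Cdc20 and Gbp3. Promoter windows and sequences are from RefSeq, where 14452 of the 18193 genes had a window. Other offsets, scalings, probe set rules and thresholds, and leaving out each array, were run as alternatives.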

Additional observations from a re-analysis of the deposited data

How the results depend on the processing

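The count of genes above background, 11010, stayed between 9953 and 12431 over 13 alternatives. The count of genes over 2-fold between control arrays, 1398, depended on the processing: it was 2245 with median centring of each array, 909 with the 99th percentile of the reference genes as threshold, 244 when counted over 4-fold and 2450 with no filter on dim genes. Leaving out 1 array gave 366 to 932, with control 1 giving the lowest, and a range over 2 arrays is smaller by construction. Of 32 lists 16 had a median in the top 25.0%, 15 to 16 over the alternatives, and 19 had a larger share over 2-fold than all genes, 15 to 20 over the alternatives. Median centring also turned 3 orders of arrays: stem cell genes lowest on control 3 went from 27 to 9 of 46, interferon genes lowest on control 3 from 24 to 4 of 42, and oxidative phosphorylation genes highest on control 2 from 43 to 21 of 76; the cause was not tested. Under 9 other alternatives those counts were 25 to 29, 21 to 24 and 42 to 52. With median centring control 3 was highest for 10 of 12 plasma cell and 9 of 9 B cell genes. It was highest for 6 of 7 mast cell and 17 of 18 heat shock genes, against 61.3% of genes above background. No paired analysis was possible because 1 group is described and the results come from no test. With 3 arrays, no detection calls and at most 27.0% of probe sets under a signal of 16 on a control array, order among dim genes cannot be read.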

Other observations

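Of 9160 probe sets that name no gene in the annotation used here, 2781 (30.4%) had a mean over the control arrays above the threshold of 7.61, against 57.6% of the probe sets naming 1 gene. Of these 2781, 1571 (56.5%) differed by more than 2-fold between control arrays. Among genes above background 12.7% did, and in their dimmest quartile 36.7%. The part of the level of the unnamed probe sets in this share was not tested.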
